A study of Mus musculus with 2 samples.

Results

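Mrc1-positive macrophages are the cells annotated as macrophages in colitis-associated colon cancers (CACs) of mice that held at least 2 molecules of Mrc1 mRNA. Mrc1 encodes the mannose receptor CD206, an endocytic lectin. A molecule is 1 unique molecular identifier (UMI), so amplification does not add to the count. The rule selected 1491 of 4809 macrophages, in a data set of 38883 cells, with 578 members in the F/F-labelled library and 913 in the ΔMye-labelled library. Within each library they were compared with the macrophages that held no Mrc1 UMI and at least 3000 UMIs in total, 1066 and 953 cells, called Mrc1-0 macrophages from here on. The members were chosen by a measured mRNA of the same cells, so their levels are described and not tested.

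The study asks how deletion of the microRNA gene Mir34a in myeloid cells bears on CACs. All mice carried floxed Mir34a alleles. Mice of the genotype Mir34a ΔMye also carried LysM-Cre, a Cre recombinase inserted at the Lyz2 gene that deletes floxed alleles in myeloid cells, whereas mice of the genotype Mir34a F/F lacked Cre. At an age of 6 to 10 weeks, mice of both genotypes received injections of 10 mg/kg azoxymethane (AOM), a carcinogen, and then dextran sodium sulfate (DSS), which injures the colon epithelium, for 5 days each at 2.5% in the first colitis periods, each followed by 16 days of water, and at 2% in the last. CACs were taken on day 110. For each genotype, 6 to 8 tumors of 3 mice were combined into 1 library, and the annotation used here assigns no cell to a mouse. With 1 library per genotype there is no replicate, so no test between genotypes was made and no p-value is given. All intervals are at 95% and hold for counting error alone, leaving out differences among mice. Those of levels and log2 ratios also leave out differences among the cells of a group.

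Macrophages of the colon are replenished by monocytes from the blood. As monocytes mature in the tissue they lose Ly6c2 and gain MHC class II, complement C1q, the chemokine receptor CX3CR1 and CD206. CD206 is therefore widely used as a marker of mature resident macrophages and, in tumors, of alternatively activated tumor-associated macrophages, whose survival depends on the receptor for colony-stimulating factor 1, encoded by Csf1r.

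The libraries held 20312 and 18571 cells, with medians of 4787 and 7716 UMIs per cell, for the genotype labels Mir34a F/F and Mir34a ΔMye. The table holds features for the deleted gene and for Cre, which do not settle these labels. A feature for the primary transcript of Mir34a had 133 UMIs in macrophages of the F/F-labelled library, 65 of them in members, and 462 in the ΔMye-labelled ones, 351 of them in members, and whether its reads lie in the deleted stretch is not given in the sources used here. A feature named for Cre and Lyz2 had 451 and 172 UMIs in them, a feature for Cre alone had none, and those for the hairpin and the mature microRNA had none either. Lyz2, where Cre is inserted in Mir34a ΔMye mice, was at 1.44 in macrophages of the F/F-labelled library and 0.371 in the ΔMye-labelled ones. It was lower in T cells of the latter library as well, at 0.0448 and 0.0159. How reads of Lyz2 were shared between it and the feature named for Cre and Lyz2 is not given in the sources used here. The libraries are therefore named by their labels throughout. Members were deeper than Mrc1-0 macrophages, with medians of 11750.5 and 6795 UMIs in the F/F-labelled library and of 20693 and 10266 in the ΔMye-labelled library. Median mitochondrial content was 1.86% and 1.83% in the former library and 3.29% and 3.54% in the latter. Among all cells, 96 barcodes occurred in both libraries, of which 3 and 6 belonged to members. A level is the mean, over the cells of a group, of a gene's UMIs per 10000 UMIs in a cell. Levels can be compared between groups of cells but not between genes, since the length of an mRNA was not taken into account. A list called rRNA-like and ambient-associated here holds Gm42418, Gm26917, AY036118, Gm15564, Lars2, Camk1d and Cdk8. Of these, Lars2, Camk1d and Cdk8 encode proteins, and the study names a macrophage subtype by Cdk8. Whether their UMIs are ambient was not tested. The 7 genes had a summed level of 232 in members of the F/F-labelled library and 475 in the ΔMye-labelled ones. In Mrc1-0 macrophages it was 318 and 698.

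Mrc1 was found mainly in macrophages. At least 2 Mrc1 UMIs were held by 26.2% (24.4 to 28.1) of macrophages of the F/F-labelled library and by 35.1% (33.3 to 37.0) of those of the ΔMye-labelled library. In T cells, which should lack Mrc1, the shares were 0.259% and 0.793%, at median depths of 3548 and 8043 UMIs against 7251.5 and 11227 in macrophages. The level of Mrc1 over all macrophages was 1.79 and 2.88, compared with 0.131 and 0.130 in T cells and 0.120 and 0.198 in dendritic cells. Since a deeper cell reaches 2 UMIs more easily, the macrophages with at least 3000 UMIs were also thinned at random to that number, which left out 372 and 568 shallower ones. Of the remaining 1836 and 2033, 25.1% and 35.4% then held at least 1 Mrc1 UMI. The share was therefore higher in the ΔMye-labelled library at its own and at equal depth.

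**Figure D1:**
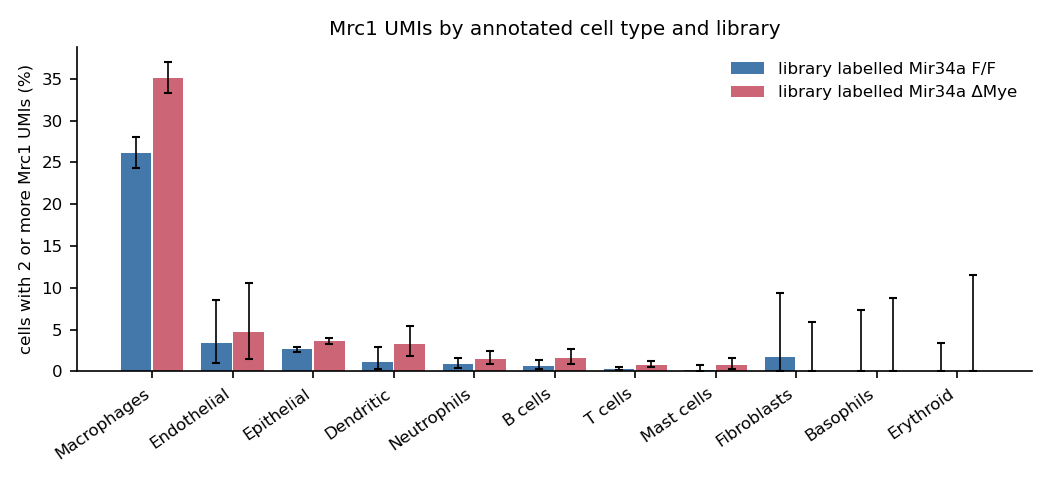
Share of cells with 2 or more Mrc1 UMIs (%), by annotated cell type, in the F/F-labelled (blue) and ΔMye-labelled (red) libraries, with exact binomial intervals as error bars. Macrophages reach 26.2% and 35.1%, while T cells stay at 0.259% and 0.793%.

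Outside macrophages, the share was highest in endothelial cells, at 3.45% and 4.67%, where the level of Mrc1 was 0.532 and 0.510 in 116 and 107 cells. In larger number, 306 epithelial cells of the F/F-labelled library and 353 of the ΔMye-labelled library also held at least 2 Mrc1 UMIs, which is 2.63% and 3.58% of the type. These epithelial cells were not like the members. Csf1r was at 0.121 and 0.226 in them, near the levels of 0.155 and 0.209 in epithelial cells without Mrc1, whereas Epcam, an adhesion molecule of epithelial cells, was at 23.1 and 18.7. Their median depths of 17078.5 and 18148 UMIs exceeded those of 7217 and 8274.5 in epithelial cells without Mrc1.

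The markers that are used beside Mrc1 to recognise these cells were higher in members in both libraries. The transcription factor Maf was at 4.17 in members and 1.26 in Mrc1-0 macrophages of the F/F-labelled library, a log2 ratio of 1.73 (1.62 to 1.84), and at 4.38 and 1.03 in the ΔMye-labelled ones, a log2 ratio of 2.09 (1.98 to 2.21). Mgl2, a lectin that binds galactose, was at 0.832 and 0.153 in the former library and at 1.14 and 0.187 in the latter, with log2 ratios of 2.44 (2.15 to 2.73) and 2.61 (2.33 to 2.89). Csf1r was at 6.79 and 4.52, and at 8.80 and 4.05, with log2 ratios of 0.59 (0.52 to 0.65) and 1.12 (1.06 to 1.17). Csf1r thus separated the groups less than Maf and Mgl2 did, and reached 2-fold only in the ΔMye-labelled library. Maf is no marker of macrophages alone, as T cells had Maf at 5.18 and 5.33.

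At the threshold, members with the fewest Mrc1 UMIs lay near the cells just outside, with Maf and C1qa higher in the members. The 132 members with exactly 2 Mrc1 UMIs of the F/F-labelled library had Maf at 2.81 and C1qa at 22.9, and the 255 macrophages with 1 UMI, which belong to neither group, had 2.22 and 16.2. In the ΔMye-labelled library, the 103 members with 2 UMIs had 2.57 and 20.9, and the 310 cells with 1 UMI had 1.70 and 13.6. Csf1r was at 5.43 in members with 2 UMIs and 5.48 in cells with 1 UMI of the former library and at 5.40 and 4.89 in the latter. A further 309 and 425 macrophages without Mrc1 UMI were under 3000 UMIs and were not compared.

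In all, 3840 genes had a level of at least 0.5 in any of the 4 groups. Of these, 249 (6.48%) were at least 2-fold higher and 125 (3.26%) at least 2-fold lower in members of the F/F-labelled library, and 277 (7.21%) and 146 (3.80%) in the ΔMye-labelled one. In both libraries together, 212 (5.52%) were at least 2-fold higher and 101 (2.63%) at least 2-fold lower in members, and the median log2 ratios over all genes were 0.044 and 0.0021. With each cell thinned to 3000 UMIs and the groups kept they were 210 and 108, and with groups formed anew from the thinned Mrc1 counts, 1 or more UMIs against 0, they were 122 and 62. With a level of at least 0.1 they were 402 and 197, and with at least 1, 140 genes were higher. A gene that reached 0.5 in members alone, or in Mrc1-0 macrophages alone, was bound to be higher there in the library where it did so. Mgl2, Gas6, Slc40a1, Ccl7, Ccl8 and C6 are among those that did so in members alone. How many genes of each list entered through members alone was not counted. The direction was the same in both libraries for 3244 genes (84.5%), and 2 genes were 2-fold higher in one library and 2-fold lower in the other. Counts of 2-fold genes in the lists below are to be read against these shares, and they carry no test. Counts of list genes higher or lower in both libraries by any amount have only the 84.5% beside them. That share holds both directions together, so it does not tell how many genes of all went each way.

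**Figure D2:**
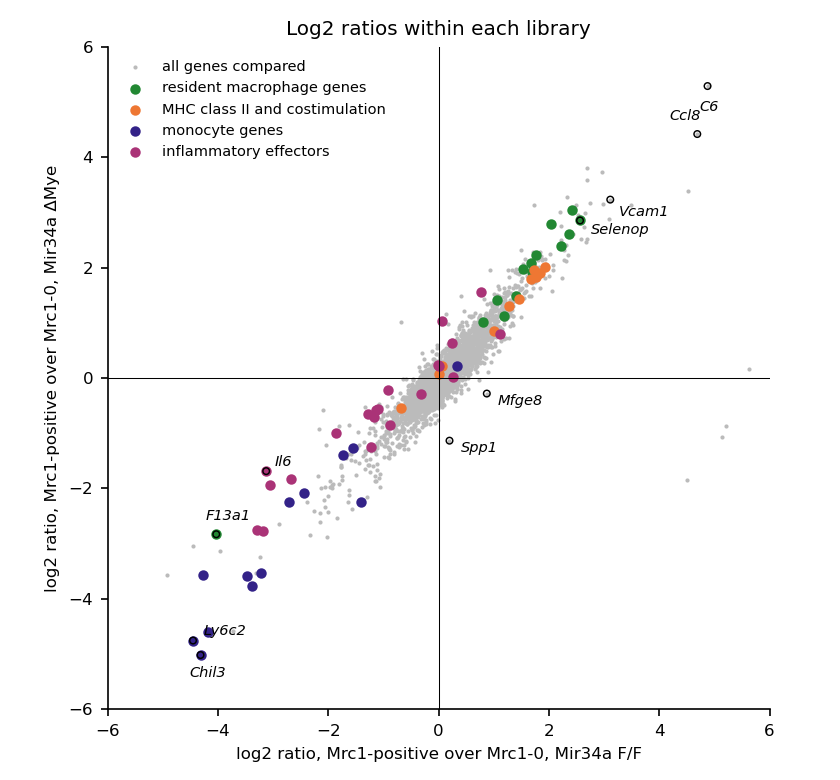
Log2 ratios of levels in Mrc1-positive over Mrc1-0 macrophages in the F/F-labelled library (x axis) and in the ΔMye-labelled one (y axis), with a point for each of the 3840 genes compared and 4 gene lists in color. Most resident macrophage genes and most MHC class II and costimulation genes lie in the upper right, and most monocyte genes in the lower left. Exceptions are F13a1 and Cd80 in the lower left and Lyz2 in the upper right. Spp1 and Mfge8 lie apart from the diagonal.

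Genes of resident macrophages were higher in members. Of 18 genes on this list, 14 reached the level of 0.5, 12 were at least 2-fold higher in both libraries and 1, F13a1, was lower, with median log2 ratios of 1.68 and 2.03 over the 14, as all medians of a list here are over its genes compared. Cx3cr1, the receptor for fractalkine, was at 4.98 in members and 1.57 in Mrc1-0 macrophages of the F/F-labelled library and at 5.43 and 1.29 in the ΔMye-labelled ones. Adgre1, which encodes the macrophage antigen F4/80, was at 2.74 and 0.810, and at 3.51 and 0.746. Each of these genes was more than 3 times as high in members in both libraries. Selenop, a carrier of selenium, was at 8.88 and 1.504 in the former library and at 12.8 and 1.77 in the latter, with log2 ratios of 2.56 (2.47 to 2.65) and 2.86 (2.77 to 2.94). The chemokine Pf4 was at 9.90 and 1.85, and at 6.17 and 0.751, and Ms4a7, a surface protein of macrophages, had log2 ratios of 2.22 and 2.39. Hpgds, which makes prostaglandin D, had log2 ratios of 2.36 and 2.60, and the growth factor Igf1 of 1.70 (1.55 to 1.84) and 1.92 (1.76 to 2.09). F13a1, a coagulation factor of monocytes and of some resident macrophages, was at 0.0997 in members against 1.63 in Mrc1-0 macrophages of the F/F-labelled library and at 0.249 against 1.77 in the ΔMye-labelled ones.

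Of the scavenger and lectin receptors, 8 of the 22 genes analysed reached the level of 0.5, and all 8 were higher in members in both libraries, 4 of them at least 2-fold, with median log2 ratios of 0.86 and 1.29. These 4 were Mgl2, the scavenger receptors Stab1 and Colec12, and the lectin Clec4a2. Mgl2 reached the level of 0.5 in members alone, which set its direction. Stab1, which takes up modified lipoproteins, was at 2.68 and 0.888 in the F/F-labelled library and at 2.51 and 0.698 in the ΔMye-labelled one. Msr1 and Cd36, receptors for modified lipoproteins, had log2 ratios of 0.54 and 0.63 in the former library and 0.61 and 1.12 in the latter. Several receptors by which some resident macrophages are recognised were nearly absent from the members. Of these, Timd4 is on the list of resident macrophage genes, and its levels in members were far below 0.5. Cd163, the receptor for hemoglobin-haptoglobin, was at 0.0090 and 0.0125 in members of the 2 libraries, Lyve1, which binds hyaluronan, at 0.0046 and 0.0015, Timd4, a receptor for phosphatidylserine, at 0.0084 and 0.0117, and the folate receptor Folr2 at 0.0711 and 0.0587. Vsig4, a complement receptor, was at 0.0051 and 0.0126. Cd209f and Cd209g had no UMI in any of the 4 groups.

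Of 11 complement genes compared, 8 were higher in members in both libraries and 2 lower. C1qa was at 26.5 in members and 7.40 in Mrc1-0 macrophages of the F/F-labelled library, a log2 ratio of 1.84 (1.80 to 1.88), and at 28.2 and 6.25 in the ΔMye-labelled ones, a log2 ratio of 2.17 (2.13 to 2.22). C1qb and C1qc, the other chains of C1q, had log2 ratios of 1.64 and 1.81 in the former library and 1.95 and 2.14 in the latter, and C3ar1, the receptor for C3a, of 1.72 and 2.28. These 4 were the genes of the list that were 2-fold higher in both libraries, and the medians over all 11 genes of the list that were compared were 0.53 and 0.68. C3, the central component of complement, was at 0.997 and 1.91 in the former library and at 0.670 and 1.45 in the latter.

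Receptors for dying cells were higher in members. Mertk, a TAM receptor kinase for phosphatidylserine bound by GAS6 or protein S, was at 2.24 and 0.605 in the F/F-labelled library and at 2.18 and 0.536 in the ΔMye-labelled one, with log2 ratios of 1.89 (1.74 to 2.05) and 2.03 (1.87 to 2.18). Axl, another TAM receptor, was at 2.06 and 0.771, and at 2.46 and 0.877, with log2 ratios of 1.42 (1.28 to 1.56) and 1.49 (1.37 to 1.61). Their ligand Gas6 was at 0.508 and 0.193, and at 0.637 and 0.228, and so entered through members alone, which set its direction. Tyro3, the remaining TAM receptor, was at 0.0023 and 0.0022 in members. Of 17 genes on this list 13 were compared, 11 were higher in both libraries and 5 of them at least 2-fold, with median log2 ratios of 0.87 and 0.96. Integrin subunits Itgav and Itgb5 had log2 ratios of 0.997 and 1.02 in the former library and 0.83 and 1.12 in the latter.

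The mRNAs for antigen presentation by MHC class II were mostly higher in members. The class II chain H2-Aa was at 33.5 and 9.35 in the F/F-labelled library and at 48.0 and 12.8 in the ΔMye-labelled one, with log2 ratios of 1.84 (1.80 to 1.88) and 1.90 (1.87 to 1.93). The invariant chain Cd74 was at 90.5 and 27.3, and at 128 and 32.9. H2-Ab1, H2-Eb1, H2-DMa, H2-DMb1 and Ciita, the transactivator of class II genes, were also at least 2-fold higher in both libraries, which makes 7 of 11 genes compared, and median log2 ratios were 1.46 and 1.43. Costimulatory genes varied. Cd86 was higher in members, with log2 ratios of 1.01 and 0.85, while log2 ratios were lower for Cd80, at -0.69 and -0.55, and near 0 for Cd40, at 0.0025 and 0.08, and for Cd274, which encodes PD-L1, at 0.07 and 0.22.

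Chemokines were divided. Ccl8, a CC chemokine, was at 3.36 in members and 0.131 in Mrc1-0 macrophages of the F/F-labelled library, a log2 ratio of 4.69 (4.41 to 4.96), and at 3.65 and 0.170 in the ΔMye-labelled ones, a log2 ratio of 4.42 (4.10 to 4.74). Ccl7, which recruits monocytes, was at 1.39 and 0.215, and at 2.80 and 0.231. Ccl12, a ligand of CCR2, had log2 ratios of 1.65 and 1.95. Of 16 genes compared, 5 were at least 2-fold higher in both libraries, Cx3cr1 among them, and 3 lower, with median log2 ratios of 0.31 and 0.72. The lower ones were Ccl24, which attracts eosinophils, at 1.56 and 3.45 in the former library and 0.407 and 1.49 in the latter, the monocyte receptor Ccr2 at 0.387 and 1.29, and at 0.801 and 2.09, and the lymph node homing receptor Ccr7, with log2 ratios of -1.91 and -1.93.

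Growth factors and their receptors were compared for 15 genes, of which 6 were at least 2-fold higher in both libraries and none was 2-fold lower in both, with median log2 ratios of 0.70 and 0.93. Pdgfc and Pdgfb, ligands of PDGF receptors, had log2 ratios of 2.48 and 1.26 in the F/F-labelled library and 3.06 and 1.57 in the ΔMye-labelled one. The TGF-β receptor chain Tgfbr1 was at 2.49 and 1.10, and at 3.61 and 1.55, and Tgfbr2 at 1.24 and 0.539, and at 2.23 and 0.753, while the ligand Tgfb1 was lower in members, at 2.36 and 4.06, and at 2.58 and 4.31. Nrp1, a coreceptor for semaphorins and VEGF, had log2 ratios of 1.94 and 2.02. Areg, a ligand of the EGF receptor, was at 1.45 and 2.83, and at 1.11 and 2.44.

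Among 17 transcription factors compared, 3 were at least 2-fold higher in members in both libraries, Maf and Mef2c among them. Mef2c was at 1.60 and 0.512 in the F/F-labelled library and at 2.30 and 0.824 in the ΔMye-labelled one, with log2 ratios of 1.64 and 1.48. The median log2 ratios of this list were 0.15 and 0.08. Spi1, which encodes the myeloid factor PU.1, was at 2.10 and 2.25, and at 2.67 and 2.29, and Zeb2 had log2 ratios of 0.24 and 0.04. Bhlhe40 was lower, with log2 ratios of -0.72 and -0.81, as was Cebpb, with -0.58 and -0.35.

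Lipid, lysosome and iron genes were mostly higher by less than 2-fold. The lipoprotein Apoe was at 231 and 68.7 in the F/F-labelled library and at 183 and 39.7 in the ΔMye-labelled one, with log2 ratios of 1.75 (1.73 to 1.76) and 2.21 (2.19 to 2.23). The lipase Lipa and the tetraspanin Cd63 were the other genes 2-fold higher in both libraries, of 18 compared, of which 16 were higher in both, with median log2 ratios of 0.71 and 0.70. The cathepsins Ctsb and Ctsl had log2 ratios of 0.90 and 0.98 in the former library and 1.09 and 1.22 in the latter. Slc40a1, which encodes the iron exporter ferroportin, was at 0.785 and 0.219, and at 1.06 and 0.219, and transferrin (Trf) had log2 ratios of 1.06 and 1.12. The ferritin chain Fth1 was at 148 and 208, and at 106 and 125, and was therefore lower in members in both libraries.

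**Figure D3:**
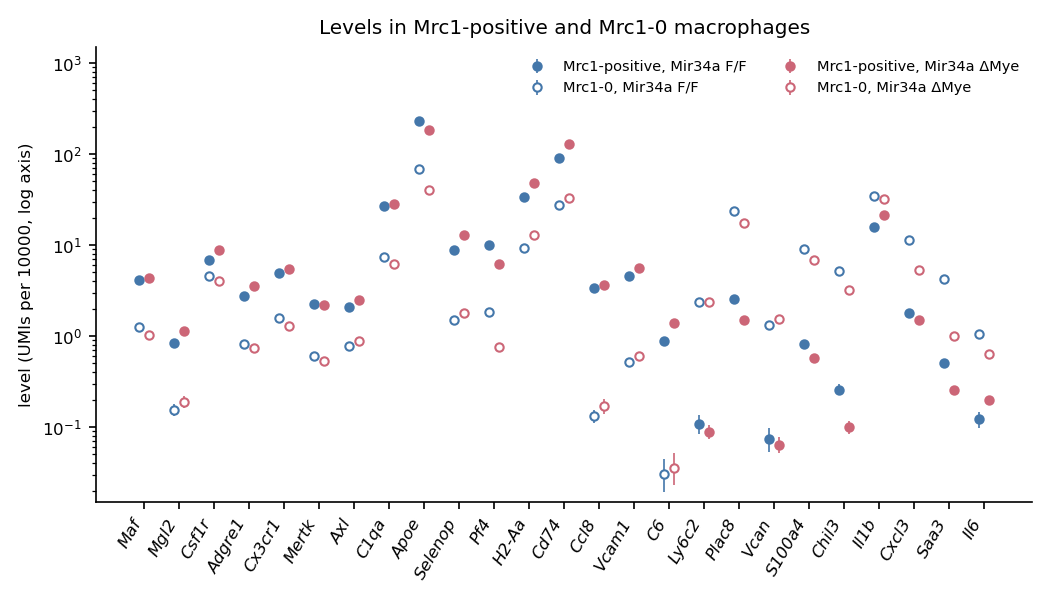
Levels of 25 genes (UMIs per 10000, log axis) in Mrc1-positive (filled) and Mrc1-0 (open) macrophages of the F/F-labelled (blue) and ΔMye-labelled (red) libraries, with exact Poisson intervals of the summed UMIs scaled to the level as bars. From Maf to C6 the filled points lie above the open points of the same library, and from Ly6c2 to Il6 below them.

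Genes of monocytes were lower in members. Of 13 genes compared, 12 were at least 2-fold lower in both libraries, with median log2 ratios of -3.22 and -3.54. Of these 13, 7 reached the level of 0.5 in members of either library. The others, Ly6c2 among them, entered through Mrc1-0 macrophages alone, which set their direction where they reached that level. Ly6c2, the antigen that defines inflammatory monocytes, was at 0.108 in members and 2.36 in Mrc1-0 macrophages of the F/F-labelled library, a log2 ratio of -4.45 (-4.85 to -4.06), and at 0.0878 and 2.38 in the ΔMye-labelled ones, a log2 ratio of -4.76 (-5.09 to -4.42). Plac8 was at 2.54 and 23.7, and at 1.51 and 17.6. Vcan, a proteoglycan of the matrix, had log2 ratios of -4.18 and -4.60, the calcium-binding protein S100a4 of -3.47 and -3.59 and haptoglobin (Hp) of -4.28 and -3.56. The chitinase-like protein Chil3 was at 0.257 and 5.13, and at 0.0992 and 3.22, and 75.2% of its UMIs in members of the F/F-labelled library came from 1 cell. Thrombospondin 1 (Thbs1) and fibronectin (Fn1) were also lower, with log2 ratios of -1.56 and -1.41 in the former library and -1.27 and -2.25 in the latter. The exception was Lyz2, which encodes lysozyme, at 1.78 and 1.41, and at 0.410 and 0.353. In mice with LysM-Cre it carries the Cre insertion. The separate feature named for Cre and Lyz2 held 188 and 95 UMIs in members of the F/F-labelled and ΔMye-labelled libraries. Whether these are reads of Lyz2 was not tested, so the levels of Lyz2 may be incomplete.

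Inflammatory effectors were lower in both libraries for 14 and higher in both for 5 of 21 genes compared, with median log2 ratios of -1.09 and -0.59, and 6 were at least 2-fold lower in both libraries. Of the 21, 18 reached the level of 0.5 in members of either library. The others, Il6 among them, entered through Mrc1-0 macrophages alone. Cxcl3, a chemokine for neutrophils, was at 1.78 and 11.3 in the F/F-labelled library and at 1.503 and 5.33 in the ΔMye-labelled one. The cytokine Il6 was at 0.121 and 1.06, and at 0.196 and 0.631, and the acute-phase protein Saa3 at 0.502 and 4.19, and at 0.257 and 0.987. Of the Saa3 UMIs in members of the F/F-labelled library, 34.7% came from 1 cell. Il23a, Inhba and Acod1 were the other genes at least 2-fold lower in both libraries. Il1b was at 15.9 and 34.8, and at 21.5 and 32.3, with log2 ratios of -1.13 (-1.16 to -1.09) and -0.59 (-0.61 to -0.57), and Nos2, which makes nitric oxide, at 0.251 and 0.608, and at 0.158 and 0.248. Both were thus lower in members by 2-fold only in the F/F-labelled library. The T cell attractant Cxcl9 was higher, with log2 ratios of 1.11 and 0.80, and Tnf was at 1.87 and 2.33, and at 1.79 and 2.18.

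Genes that interleukin 4 and interleukin 13 induce, and which are often grouped with Mrc1 as signs of alternative activation, were not higher together with it. Of 18 genes, 8 were compared, of which Mgl2 was 2-fold higher in members in both libraries and Chil3, Ccl24 and Tgm2 were 2-fold lower, with median log2 ratios of -0.38 and -0.73. Retnla had no UMI in any of the 4 groups. Arginase (Arg1) was at 4.12 in members and 6.06 in Mrc1-0 macrophages of the F/F-labelled library and at 1.26 and 3.08 in the ΔMye-labelled ones. Tgm2, a transglutaminase, was at 2.33 and 5.37, and at 2.49 and 5.95. A list of hypoxia and Spp1 or Arg1 genes holds Arg1 as well, besides Spp1 and metalloproteases. Of 16 of its genes compared, 11 were lower in both libraries and 2 of them, Ero1l and Ndrg1, at least 2-fold. The median log2 ratios of this list were -0.49 and -0.52. The collagenase Mmp13, also on it, was higher in members, with log2 ratios of 1.49 (1.35 to 1.63) and 2.32 (2.16 to 2.49).

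Of 12 immediate-early genes, which respond to handling as well as to signals, none was 2-fold different in both libraries, and the median log2 ratios were 0.13 and 0.45. Fos was at 10.6 and 6.48, and at 9.31 and 4.85. No gene of the 7 interferon-stimulated or 6 proliferation genes compared was 2-fold different in both libraries, with median log2 ratios of 0.04 and 0.15 for the former list and 0.35 and -0.05 for the latter. Mki67, a marker of dividing cells, was at 0.628 and 0.433, and at 0.515 and 0.439. In the colony-stimulating factor list, Csf2rb, the β chain of the GM-CSF receptor, was lower, with log2 ratios of -0.51 and -0.47, and none of 8 genes was 2-fold different in both libraries.

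The genes with the largest ratios in both libraries went beyond these lists. C6, a component of the complement attack complex, was at 0.885 in members and 0.0302 in Mrc1-0 macrophages of the F/F-labelled library, a log2 ratio of 4.87 (4.22 to 5.53), and at 1.38 and 0.0352 in the ΔMye-labelled ones, a log2 ratio of 5.29 (4.59 to 6.00). Vcam1, an adhesion molecule for lymphocytes, was at 4.51 and 0.523, and at 5.62 and 0.598. The copper oxidase ceruloplasmin (Cp) was at 1.34 and 0.170, and at 2.11 and 0.236, and Dnase1l3, a secreted nuclease, at 1.68 and 0.198, and at 2.28 and 0.308. Adamdec1, a metalloprotease of intestinal macrophages, was at 2.58 and 0.411, and at 2.58 and 0.323. The others of the 15 highest were Gm4951, Apol7c, the nonclassical MHC gene H2-M2, Tmem26, the phospholipase Pla2g2d, the adhesion receptor Adgrl3 and the ATP-gated channel P2rx7, with log2 ratios from 2.53 to 4.52, besides Ccl8, Ccl7 and Selenop. At the lower end, and besides the monocyte genes, stood the phospholipase Plcb1, at 0.300 and 3.97, and at 0.302 and 7.29, Dmkn, Ifitm6, the coagulation factor F10, the acyltransferase Gpat3, the protease inhibitors Slpi and Timp1 and the cytokine subunit Il23a, with log2 ratios from -4.92 to -2.76. Slpi was at 1.06 and 16.6, and at 0.709 and 6.20.

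Summed markers of other cell types differed between members and Mrc1-0 macrophages by less than 2-fold, except for erythroid markers. The 7 epithelial markers had a summed level of 15.9 in members and 18.05 in Mrc1-0 macrophages of the F/F-labelled library and of 9.18 and 13.2 in the ΔMye-labelled ones. T cell markers summed to 0.541 and 0.723, and to 0.404 and 0.699, dendritic cell markers to 0.502 and 0.633, and to 0.660 and 1.04, and fibroblast markers to 0.0486 and 0.0667, and to 0.103 and 0.130. The 8 markers of B and plasma cells summed to 21.8 and 19.2, and to 49.6 and 56.1, so that they differed more between the libraries than between these groups. Neutrophil markers summed to 12.7 and 13.1, and to 11.4 and 10.3, and those of mast cells and basophils to 3.75 and 4.29, and to 4.91 and 5.38, with Prss34 at 0 in all 4 groups. Endothelial markers summed to 1.52 and 1.01, and to 1.29 and 0.993, mostly through Pecam1, which macrophages also express. Erythroid markers summed to 8.03 in members of the F/F-labelled library, against 0.240 in Mrc1-0 macrophages there and 0.0421 and 0.0850 in the other library, and 41.6% of the Hbb-bs UMIs of these members came from 1 cell. At least 2 UMIs in sum of Cd3e, Cd79a, Csf3r, Cpa3, Flt3, Col1a1 and Pecam1 were held by 52.9% and 69.1% of members and by 25.4% and 36.2% of Mrc1-0 macrophages. Without these cells, 182 genes were higher and 93 lower in members in both libraries, against 212 and 101 with them. Without Csf3r and Pecam1, a choice made after seeing the data, the shares were 6.06% and 10.6% of members and 6.19% and 8.29% of Mrc1-0 macrophages, and the genes were 216 and 103. These shares were not thinned, and members are the deeper cells.

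At equal depth, levels changed in steps with the number of Mrc1 UMIs. After thinning to 3000 UMIs, macrophages of the F/F-labelled library fell into 1375 cells with no Mrc1 UMI, 227 with 1, 117 with 2, 97 with 3 to 5 and 20 with 6 or more. Those of the ΔMye-labelled library fell into 1313, 283, 169, 209 and 59 cells. Selenop was at 2.41, 6.42, 9.29, 12.4 and 16.2 over these classes in the former library and at 2.90, 10.1, 13.1, 16.9 and 22.3 in the latter, so that it was higher in each class than in the one before. Maf was at 1.62, 3.17, 4.59, 4.05 and 7.67, and at 1.38, 3.10, 3.71, 6.08 and 8.14. C1qa reached its plateau early, at 11.1, 22.6, 27.9, 29.3 and 24.3 in the former library and 10.2, 25.7, 29.3, 29.2 and 27.6 in the latter. The class II chain H2-Aa had 12.9, 27.9, 42.3, 39.8 and 40.5, and 19.8, 42.0, 47.5, 51.2 and 45.03, and so behaved like C1qa. Genes of monocytes were lower from the first step on. Plac8 went from 19.3 through 5.29, 2.59 and 1.68 to 1.17 in the former library and from 14.4 through 2.17, 1.62 and 1.05 to 0.791 in the latter. Spp1, a matrix protein of tumor-associated macrophages, stayed at 10.1 and 10.2 in cells with 0 and 1 Mrc1 UMI of the F/F-labelled library and was at 5.61, 1.55 and 1.83 beyond, while in the ΔMye-labelled ones it was at 5.02, 4.49, 1.66, 0.638 and 0.621. The highest class of the former library rests on 20 cells, and cells with 0 Mrc1 UMIs in 3000 include cells that held Mrc1 before thinning.

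**Figure D4:**
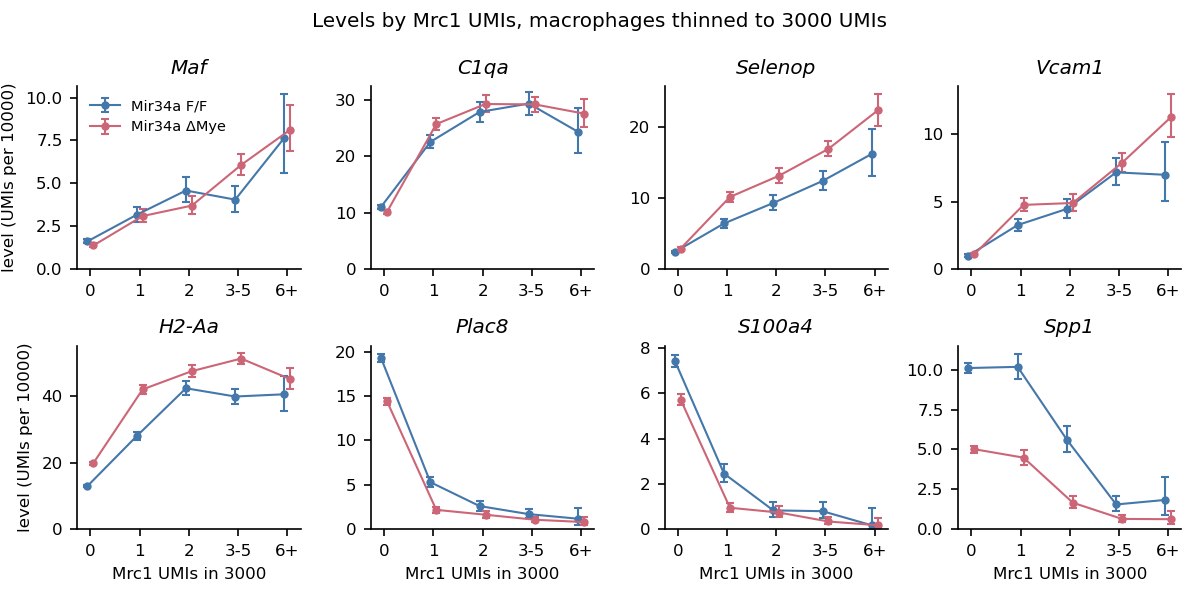
Levels of 8 genes (UMIs per 10000) by the number of Mrc1 UMIs in macrophages thinned to 3000 UMIs, for the F/F-labelled (blue) and ΔMye-labelled (red) libraries, with exact Poisson intervals as bars. Maf and Selenop are highest in the class with most Mrc1, Vcam1 is higher from 3 UMIs on than below, C1qa and H2-Aa level off at 2 UMIs, and Plac8, S100a4 and Spp1 are low at the right.

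Members differed among themselves. After thinning to 3000 UMIs, which left out 20 and 41 members as too shallow, C1qa was found in 94.98% and 95.76% of members of the F/F-labelled and ΔMye-labelled libraries, Csf1r in 84.2% and 85.7%, Maf in 56.6% and 57.1% and Adgre1 in 50.5% and 59.5%. Ccl8 was found in 19.2% (16.0 to 22.7) and 27.9% (24.9 to 31.0) of members, C6 in 17.9% and 26.4% and Mgl2 in 17.0% and 25.2%, at 3000 UMIs as well. Counts of Ccl8 had a variance of 13.8 and 8.40 times their mean, compared with 1.36 and 1.61 times for Csf1r, so that Ccl8 was concentrated in fewer cells. Spp1 was more uneven still, with 51.6 and 16.8 times. Spp1 and Arg1 occurred together. Spp1 was found in 53.1% (45.1 to 61.0) of members with an Arg1 UMI and in 24.7% (20.6 to 29.3) of those without in the former library, and in 38.1% (28.5 to 48.6) and 15.7% (13.2 to 18.5) in the latter. Ccl8 occurred with C6, which was found in 42.1% and 41.2% of members with a Ccl8 UMI and in 12.2% and 20.7% of those without. Members with Ccl8 held Spp1 less often, in 23.4% (15.7 to 32.5) against 35.3% (30.8 to 39.9), and in 10.7% (7.11 to 15.3) against 21.1% (18.02 to 24.55). Mgl2 was found in 16.8% of members with a Maf UMI and 17.4% of those without in the former library and in 25.5% and 24.9% in the latter, so that its share among members hardly differed with Maf. These shares describe cells of 1 library each and carry no test.

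Mrc1-0 macrophages were not uniform either, and members were set against 2 kinds of them. In the 259 and 132 Mrc1-0 macrophages with at least 5 Arg1 UMIs, C1qa was at 10.3 and 4.03 in the F/F-labelled and ΔMye-labelled libraries, against 26.5 and 28.2 in members, with log2 ratios of members over them of 1.36 (1.31 to 1.42) and 2.81 (2.70 to 2.91). H2-Aa was at 5.64 and 11.9, Mertk at 0.963 and 0.955 and Apoe at 115 and 37.0 in these cells, and Spp1 at 21.4 and 24.8, above the levels of 9.67 and 2.30 in members. In the 276 and 283 Mrc1-0 macrophages with at least 2 Ly6c2 UMIs, C1qa was at 0.756 and 0.763, Mertk at 0.0563 and 0.0723 and H2-Aa at 2.88 and 4.86. Their Csf1r was at 4.22 and 4.002, close to the 4.25 and 5.02 of the Arg1 cells. The members were thus above both kinds of cells in C1qa, Mertk and H2-Aa, and below the Arg1 cells in Spp1.

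Dendritic cells shared MHC class II and Mgl2 with the members. H2-Aa was at 36.0 and 37.7 in dendritic cells, a log2 ratio of members over them of -0.10 (-0.14 to -0.07) in the F/F-labelled library and of 0.35 (0.33 to 0.38) in the ΔMye-labelled one. Mgl2 was at 0.528 and 0.822. Macrophage genes set them apart, as C1qa was at 0.547 and 0.808, Csf1r at 0.544 and 0.801, Mertk at 0.0388 and 0.0367 and Maf at 0.206 and 0.202 in dendritic cells. The dendritic cell gene Flt3 was at 1.23 and 1.39 there and at 0.0156 and 0.0285 in members, and Zbtb46 at 0.623 and 0.779 against 0.0335 and 0.0397.

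Between the libraries, 3581 genes with a level of at least 0.5 in members of either library were compared. Of these, 15 (0.419%) were at least 2-fold higher and 27 (0.754%) at least 2-fold lower in members of the ΔMye-labelled library, and the median log2 ratio of Mir34a ΔMye over Mir34a F/F was 0.0016. These counts moved with the processing, as 52 genes were lower with summed UMIs, 9 were higher with totals without immunoglobulin, mitochondrial and rRNA-like genes, 24 were higher without cells with UMIs of other cell types, and 39 were higher and 132 lower with a level of at least 0.1. Mrc1 itself was at 5.96 in members of the F/F-labelled library and 7.35 in the ΔMye-labelled ones, which the rule bears on, since each member held at least 2 UMIs. Maf, Mgl2 and Csf1r differed by less than 2-fold. The log2 ratio was 0.07 (0.00 to 0.15) for Maf, 0.46 (0.30 to 0.61) for Mgl2 and 0.37 (0.32 to 0.43) for Csf1r, which in Mrc1-0 macrophages was -0.16 (-0.23 to -0.09). By direction alone, 1797 of the 3581 genes (50.2%) were higher in members of the ΔMye-labelled library. Counts of list genes higher or lower between the libraries below are to be read against this share. Genotype, mice and preparation of the libraries cannot be told apart in any of these ratios.

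Genes with lower levels in members of the ΔMye-labelled library included Mfge8, Spp1 and Arg1. Of 15 genes compared on the list of hypoxia and Spp1 or Arg1 genes, 12 were lower, with a median log2 ratio of -0.40, and Spp1 and Arg1 were the 2 that were lower by 2-fold. Mfge8, a bridge between dying cells and integrins, was at 4.12 in members of the F/F-labelled library and 0.469 in the ΔMye-labelled ones, a log2 ratio of -3.13 (-3.28 to -2.99), against -1.98 in Mrc1-0 macrophages. Spp1 was at 9.67 and 2.30, a log2 ratio of -2.07 (-2.13 to -2.01), against -0.74 in Mrc1-0 macrophages, and Arg1 at 4.12 and 1.26, a log2 ratio of -1.71 (-1.81 to -1.62), against -0.97. In both genes the libraries lay further apart among members than among Mrc1-0 macrophages. Lyz2 was at 1.78 and 0.410, with log2 ratios of -2.12 in members and -1.998 in Mrc1-0 macrophages. The Cre insertion and the separate feature named for Cre and Lyz2 may bear on these values, which was not tested. Ccl24 had a log2 ratio of -1.94 (-2.13 to -1.74), the lysosomal glycoprotein Gpnmb of -1.39 (-1.49 to -1.29), Ccl6 of -1.29 and Pf4 of -0.68. Tmsb10, which binds actin, was at 7.08 and 2.46, the metallothionein Mt2 at 2.45 and 0.875, Snhg9 at 1.19 and 0.425 and Ccdc162 at 2.94 and 1.05. Of 18 lipid and lysosome genes, 17 were lower in members of the ΔMye-labelled library, with a median log2 ratio of -0.33, and 1 of them, Gpnmb, by 2-fold. This was not particular to members. The summed level of the list was 338 and 269 in members and 145 and 99.0 in Mrc1-0 macrophages. Its largest part, Apoe, was at 231 and 183 in members and at 68.7 and 39.7 in Mrc1-0 macrophages. The same direction was seen in T cells and in epithelial cells for Mfge8, Spp1, Arg1, Lyz2, Tmsb10, Mt2, Snhg9 and Ccdc162. For example, Mfge8 was at 0.527 and 0.154 in T cells and at 0.595 and 0.276 in epithelial cells, and Snhg9 at 1.53 and 0.540, and at 1.94 and 0.932. Whether free mRNA in the droplets contributes to these ratios was not tested.

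Genes with higher levels in members of the ΔMye-labelled library included the anti-inflammatory cytokine Il10. Il10 was at 0.459 in members of the F/F-labelled library and 1.04 in the ΔMye-labelled ones, a log2 ratio of 1.18 (0.99 to 1.37), and at 0.346 and 0.369 in Mrc1-0 macrophages. It was found in 6.63% (4.71 to 9.02) and 14.3% (12.1 to 16.8) of members at 3000 UMIs, compared with 5.82% and 6.93% of Mrc1-0 macrophages. Spic, a transcription factor of iron-recycling macrophages, was at 0.211 and 0.605, a log2 ratio of 1.52 (1.22 to 1.82), Ccl7 had a log2 ratio of 1.01 (0.89 to 1.12) and Ccr2 of 1.05 (0.85 to 1.25). Mir155hg, the host transcript of miR-155, was at 0.411 and 1.09, and was higher in Mrc1-0 macrophages too, at 0.893 and 1.81. Outside macrophages, Mir155hg was lower in endothelial cells alone, with log2 ratios of 0.74 in T cells, 0.70 in epithelial cells and 1.41 in neutrophils. Ccl7 was lower in endothelial and erythroid cells alone, with log2 ratios of 0.36 in T cells, 0.48 in epithelial cells and 0.96 in neutrophils. Of the 10 other cell types, 6 had a higher level of Il10 in the ΔMye-labelled library and 4 a lower one. The log2 ratio was 1.09 in epithelial cells, 0.996 in mast cells, 0.53 in dendritic cells, 0.38 in T cells, 0.22 in neutrophils and, on 1 and 8 UMIs, 3.13 in endothelial cells. It was -0.17 in B cells, -0.26 in basophils, -2.21 in fibroblasts and -2.09 in erythroid cells, the last 3 on 1 to 9 UMIs per library. Spic was at 0.0055 and 0.0222 in epithelial cells and at 0.0021 and 0.0079 in T cells. All 11 genes of the MHC class II and costimulation list that were compared were higher in members of the ΔMye-labelled library, with a median log2 ratio of 0.50, though none by 2-fold, with H2-Aa at 0.52 (0.50 to 0.55) and Cd86 at 0.87. The summed level of this list was 197 and 280 in members and 62.9 and 81.2 in Mrc1-0 macrophages, so it was higher there too. The remaining genes with the largest ratios were Iglc2, Jchain and Igkc of plasma cells, the rRNA-like Gm15564 and the mitochondrial mt-Nd2. All 7 genes of the list called rRNA-like and ambient-associated were higher in members of the ΔMye-labelled library, and 3 of them by 2-fold. That list includes the protein-coding genes Lars2, Camk1d and Cdk8.

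**Figure D5:**
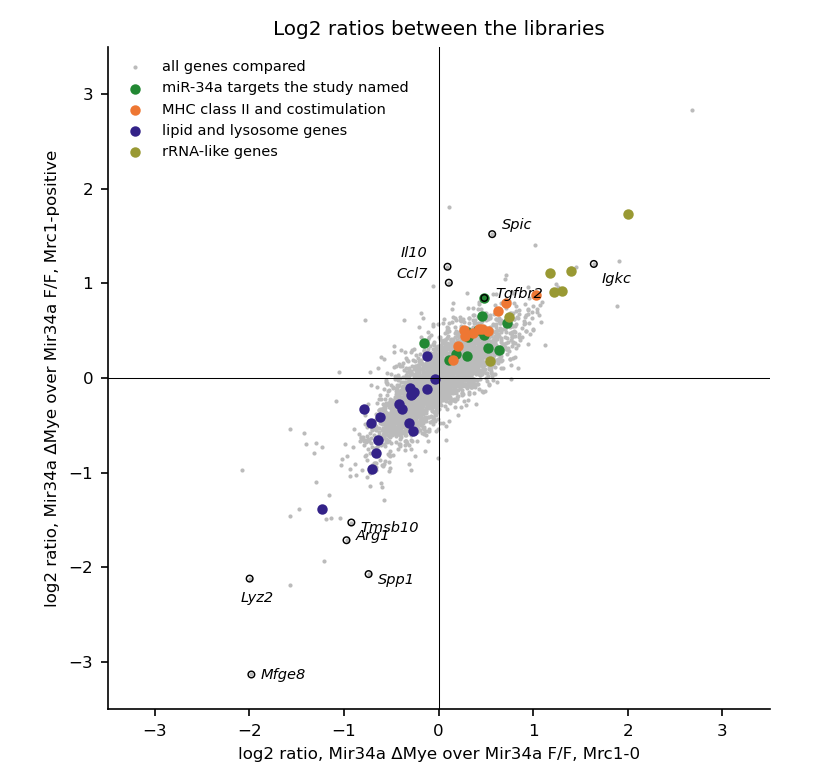
Log2 ratios of the ΔMye-labelled library over the F/F-labelled one in Mrc1-0 macrophages (x axis) and in Mrc1-positive macrophages (y axis), for the genes compared, with 4 gene lists in color. Most genes lie along the diagonal, Il10, Ccl7 and Spic lie above it, Mfge8 and Spp1 below it, and 4 hemoglobin genes fall outside the axes. The list shown as rRNA-like genes also holds Lars2, Camk1d and Cdk8.

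Loss of a microRNA is expected to raise the mRNAs it represses, which it recognises through bases 2 to 8, its seed. Which library lost Mir34a is taken from the labels, which the features given above do not settle. The mature microRNA made from Mir34a lies at chr4:150068473-150068494 on the plus strand (GRCm38.p6, sequence from RefSeq). It is shown with the seed in capitals, followed by the stretches of the 3′ UTRs of 5 genes that hold a match to the seed, from those that the study lists in macrophages as known or potential targets, because the ratio between the libraries is given for this list. Their capitals mark the match CACTGCC, with the A opposite base 1 of the microRNA where present.
mmu-miR-34a-5p: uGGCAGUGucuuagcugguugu
Axl: ggacccaagctaggCACTGCCA
Prkcb: tccctggtcctctgCACTGCCA
Synj1: gattttgtctcctgCACTGCCA
Nampt: agagttccgaacatCACTGCCc
Foxp1: ctgcatgttgatacCACTGCCt

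The matches lie in annotated 3′ UTRs of GENCODE on mm10, for Axl at chr7:25758612-25758618 on the minus strand, for Prkcb at chr7:122628126-122628132 on the plus strand, for Synj1 at chr16:90937167-90937173 on the minus strand and for Nampt at chr12:32851170-32851176 on the plus strand. Foxp1 has 2 matches, of which that at chr6:98929569-98929575 on the minus strand is shown. Csf1r holds 1 match as well. No such match was found in the annotated 3′ UTRs of Mrc1, Maf or Mgl2, nor in those of the other 7 study-named genes, among them Tgfbr2 and Ccr1. Of the 21153 genes with an annotated 3′ UTR, 17.1% hold a match to CACTGCC on the mRNA strand.

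All 13 study-named genes were higher in members of the ΔMye-labelled library, with a median log2 ratio of 0.43, and none by 2-fold. The study chose this list on these samples, so its direction is not independent evidence. Axl was at 2.06 in members of the F/F-labelled library and 2.46 in the ΔMye-labelled ones, a log2 ratio of 0.26 (0.16 to 0.36), against 0.19 (0.03 to 0.34) in Mrc1-0 macrophages. Tgfbr2, a receptor for TGF-β without a match, was at 1.24 and 2.23, a log2 ratio of 0.85 (0.72 to 0.97), against 0.48 in Mrc1-0 macrophages. The kinase Prkcb had a log2 ratio of 0.49 (0.40 to 0.59) and the phosphatase Synj1 of 0.29 (0.17 to 0.42), against 0.30 and 0.64 in Mrc1-0 macrophages, so that neither group was higher in all of these genes. Over all genes compared, the 723 with a match had a median log2 ratio of 0.067 and 60.9% were higher in members of the ΔMye-labelled library, while the 2772 with a 3′ UTR and no match had a median of -0.023 and 47.3% were higher. For the 254 genes with a match that includes the A opposite base 1, these were 0.10 and 64.2%. The quartiles of the genes with a match were -0.13 and 0.25 and those of the genes without were -0.24 and 0.19, so that the distributions overlapped, and the length of 3′ UTRs was not matched.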

How the data were processed

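The authors sequenced 2 libraries with 10x Genomics 3′ chemistry, counted reads with Cell Ranger 7.2.0 against mm10, filtered cells (more than 200 genes, under 25% mitochondrial RNA), removed doublets with Scrublet and annotated cell types. By the UMIs of the deposited table, 30 and 90 macrophages were at or over 25% mitochondrial, 2 and 16 members among them, and they were kept. No further doublet calling was done. They deposited the natural log of 1 plus UMIs per 10000 of each cell (LogNormalize), and the deposited annotation gives library and cell type. Undoing the log and dividing by the smallest value of a cell gave whole UMIs, with a largest deviation of 1.5e-10. Total UMIs were 147109016 and 193133086.

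The members and the 30 gene lists were chosen with earlier results of these data known. Levels are means over cells of UMIs per 10000. Intervals are exact Poisson or binomial, and those of log2 ratios come from the Poisson variance of the counts. The script was tested on simulated Poisson counts without variation among cells beyond their depth, which is what the intervals assume. How well the intervals cover these data was therefore not tested. Genes needed a level of 0.5 in a group compared. Of 353 listed genes 350 were found, and Clec7a, Irg1 and Mx1 were not analysed here. Beyond the lists, the 15 genes with the largest and the 15 with the smallest log2 ratio of members over Mrc1-0 macrophages, ranked by the library nearer 0 and found in at least 10% of the cells of a group, were named, and the 8 with the largest and smallest ratio between libraries, found in at least 25% of members of a library. Hemoglobin genes, Hbb-bs among them, belong to a list. Thinning drew 3000 UMIs per cell without replacement. Python 3.11.15, numpy 2.4.6, scipy 1.17.1, pandas 2.3.3 and matplotlib 3.10.9 were used. Alternatives were summed UMIs, thinning, a pseudocount of 0.1, totals without 414 immunoglobulin, mitochondrial and rRNA-like genes, at least 500 genes and under 10% mitochondrial UMIs, leaving out cells with UMIs of other cell types, and other thresholds. The 414 genes left out of those totals include Lars2, Camk1d and Cdk8. The 3′ UTRs are from GENCODE M21.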

Additional observations from a re-analysis of the deposited data

Results flagged for a closer look

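For 11 named genes the ratio of Mrc1-positive over Mrc1-0 macrophages pointed in opposite directions in the 2 libraries, with counting intervals on either side of 0. Named genes numbered 376, including listed ones below the level compared. Over all 3840 genes compared, 596 had opposite directions without regard to intervals. The number of these with intervals on either side of 0 is not given here, so the 11 have no such share beside them. With 1 library per genotype, the difference between the libraries was not tested. Each difference is the log2 ratio in the ΔMye-labelled library minus that in the F/F-labelled library.

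Spp1 had log2 ratios of 0.20 in the F/F-labelled library and -1.14 in the ΔMye-labelled one, a difference of -1.33. Mfge8, which bridges dying cells to integrins, had 0.87 and -0.28, a difference of -1.15, and the chemokine Ccl6 had 0.30 and -0.41, a difference of -0.71. Stmn1, a regulator of microtubules, had 0.22 and -0.34, a difference of -0.55, and the metallothionein Mt2 had 0.10 and -0.19, a difference of -0.29. Hmox1, which degrades heme, went the other way, with -0.30 and 0.45, a difference of 0.75. Leaving out the cell with most UMIs of the gene in each group, an alternative chosen after seeing the data, left these 6 genes in opposite directions, with Spp1 at 0.16 and -0.96 and Mfge8 at 0.88 and -0.42.

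The remaining genes are those of plasma and red blood cells. Igkc had a difference of -0.43, Jchain of -0.68 and Igha of -0.23, and 61.6%, 69.7% and 44.3% of their UMIs in members of the F/F-labelled library came from 1 cell. Without the top cell of each group, their log2 ratios in that library were -0.25, -0.25 and -0.21, in the same direction as in the other library. The hemoglobin genes Hbb-bs and Hba-a2 had differences of -6.21 and -6.36, with log2 ratios of 5.14 and 4.50 in the F/F-labelled library and -1.07 and -1.85 in the other. Without the top cells they were still at 4.66 and 3.81 in the former library. Hbb-bs was found in 3.58% of members of the F/F-labelled library and 0.459% of the ΔMye-labelled ones at 3000 UMIs.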

How the results depend on the processing

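No paired analysis was possible because each genotype has 1 library and no result comes from a test. With at least 1 or at least 3 Mrc1 UMIs, the share of Mrc1-positive macrophages was 37.7% or 20.2% in the F/F-labelled library and 47.0% or 31.1% in the ΔMye-labelled one. With a level of at least 0.1, 402 genes were higher and 197 lower in members in both libraries, and 39 were higher and 132 lower in members of the ΔMye-labelled library. With a level of at least 1, 140 genes were higher in members in both libraries. With groups formed from thinned counts, 122 genes were higher and 62 lower. Between libraries, summed UMIs gave 52 lower genes, totals without immunoglobulin, mitochondrial and rRNA-like genes gave 9 higher ones, and leaving out cells with UMIs of other cell types, Csf3r and Pecam1 included, gave 24 higher ones. Added after seeing the data, leaving out barcodes found in both libraries gave 210 and 102 genes higher and lower in members, and 15 and 27 between libraries. Single genes and list medians were not recomputed for the groups from thinned counts or for the alternatives added after seeing the data, apart from the 11 genes with opposite directions, and under the 8 for which they were recomputed no called value of theirs changed direction. For the named genes, 1371 of the recomputed values moved beyond their counting interval and 3263 did not. The causes were not tested. Depth limits the shares of cells, since members were deeper than Mrc1-0 macrophages and the ΔMye-labelled library was the deeper one. A macrophage with 0 Mrc1 UMIs may hold Mrc1 mRNA that was not captured, and no interval covers the variation between mice.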
